A study of Mus musculus with 2 samples.

Results

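Transcript levels of 50 cell cycle and mitosis genes were read from the whole uterus of 2 pregnant C57BL/6 mice. They are a given list of symbols, and all 50 were found among the 22740 genes of the deposited table. By role they comprise 8 G1 cyclins and kinases, 5 inhibitors of cyclin-dependent kinases (CDKs), 7 members of the RB and E2F families, 13 S phase genes, 15 mitotic genes, and the upstream regulators Trp53 and Myc. Both mice were sampled at day 4 of pregnancy, are titled WT1 and WT2, and form 1 group, with 1 library for each uterus. No allele, agent or comparison group is given, so the data describe levels in this tissue and the spread between 2 animals, here called uterus 1 and uterus 2. Values are the authors' RPKM (reads scaled by transcript length and library size), a scale on which genes of different length can be compared, and errors are the SD over the 2 uteri.

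Cells enter division when D cyclins activate CDK4 and CDK6, which phosphorylate RB proteins and free E2F factors to switch on the genes of DNA replication. Cyclin E and CDK2 carry the cell into S phase, and cyclin A, cyclin B and CDK1 carry it through mitosis, while inhibitors of the INK4 and CIP/KIP families hold the kinases in check. In the mouse uterus at this stage, stromal cells are known to proliferate under progesterone while the luminal epithelium has largely stopped dividing.

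Recovered reads, the whole reads behind the RPKM values, came to 3853640 for uterus 1 and 4281400 for uterus 2 in all. The 50 genes held between 2 and 1417 reads each. Stromal, smooth muscle, epithelial and endothelial markers were all at 10 RPKM or more in both uteri, led by Col3a1 (stroma, 1924 RPKM), Acta2 (smooth muscle, 622 RPKM), Krt18 (epithelium, 82.4 RPKM) and Pecam1 (endothelium, 50.8 RPKM). Of 5 leukocyte markers 4 were detected, led by Csf1r at 21.2 RPKM. None of 6 markers of the preimplantation embryo reached 1 RPKM in both uteri: Eomes was the highest at 1.09 RPKM, and Cdx2 and Dppa3 were listed at 0 in both. None of 4 ovary markers was detected either, with Amh highest at 0.744 RPKM. The marker list of B and plasma cells differed between the animals, summing to 55.2 RPKM in uterus 1 and 233 in uterus 2, nearly all of it Igj (53.2 and 229.7 RPKM). Its part in the results below was not tested. In whole tissue, fewer cells of a type and less RNA per cell cannot be told apart.

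At a threshold of 1 RPKM in both uteri, 48 of the 50 genes were detected, beside 58.4% of all genes in the table. The 2 below it were the CDK inhibitors Cdkn2a and Cdkn2b. At 10 RPKM or more in both uteri there were 29 of the 50, beside 30.4% of all genes. Levels ran from 0.540 RPKM for Cdkn2a to 165 RPKM for Cdk4, a 305-fold range. Ordered by mean level, the first 3 genes, Cdk4, Pcna and Top2a, stood apart from each other and from the rest, in that the ranges of their values over the 2 uteri did not overlap. Below them the order was close. Of all 49 neighbouring pairs in the order, the ranges overlapped in 37, and all of these pairs lay below the first 3 genes.

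**Figure D1:**
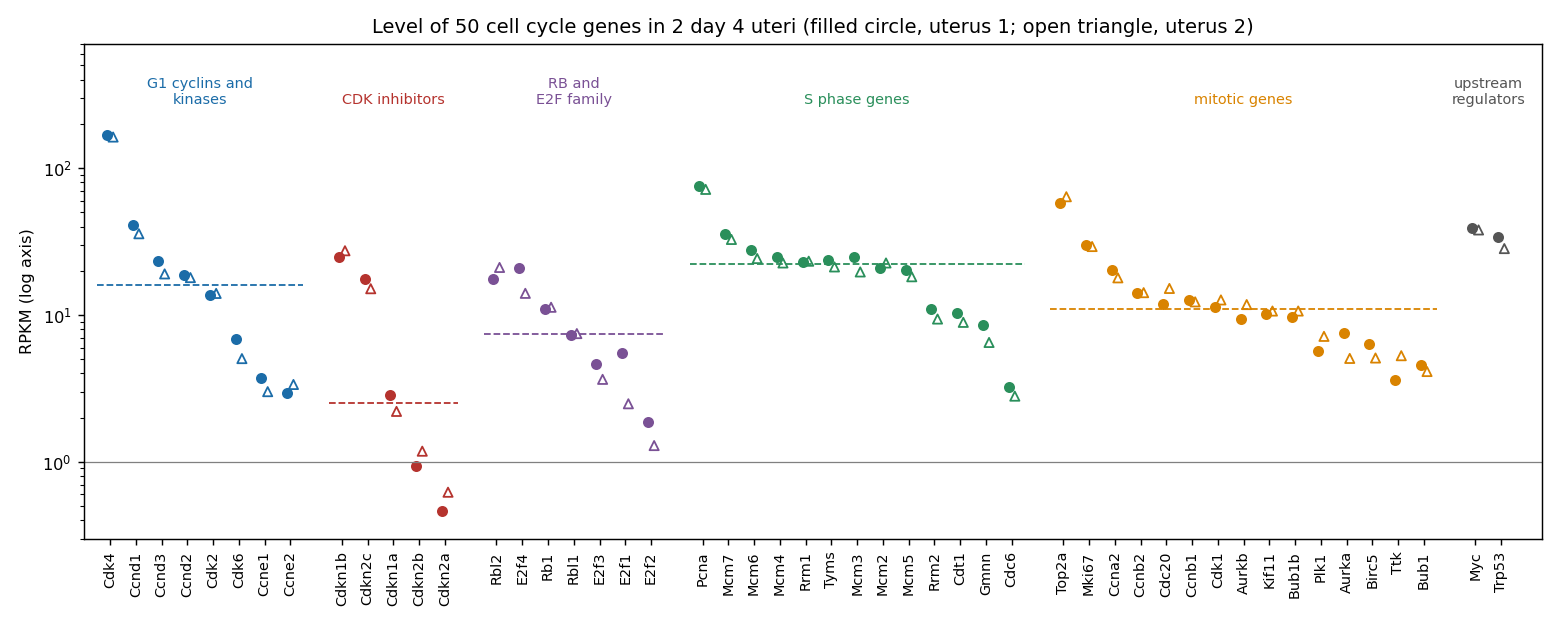
RPKM (log axis) of each of the 50 genes in uterus 1 (filled circles) and uterus 2 (open triangles), ordered by mean within each class, with dashed lines at class medians and a grey line at 1 RPKM. The CDK inhibitors spread 48.1-fold, from 0.540 to 25.99 RPKM, while most of the S phase genes cluster around their median of 22.1 RPKM.

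All 8 G1 cyclins and kinases were detected, and their median level was 16.2 RPKM in uterus 1 and 16.0 in uterus 2. Cdk4 (NM_009870, chromosome 10, 126500659 to 126504338), a kinase partner of the D cyclins, was read at 167 RPKM in uterus 1 and 163 in uterus 2, on 861 and 932 reads. At 165 ± 2.93 RPKM (SD, n = 2) it ranked 246 of all genes. Cdk6, the other D cyclin kinase, was read at 6.86 and 5.04 RPKM. Cdk4 thus exceeded Cdk6 24.3-fold in uterus 1 and 32.3-fold in uterus 2. The Cdk4 exons overlap those of Tspan31 on the opposite strand over 604 bases, and the library kit named in the labels is not described as keeping strand. Tspan31 itself was read at 51.4 and 51.5 RPKM, and how many of the reads in the overlap came from each gene was not tested. Such overlaps on the opposite strand exist for 11 of the 50 genes, in the G1 class also for Ccnd1, Ccnd3, Ccne2 and Cdk6.

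Among the D cyclins, which bind CDK4 and CDK6 in response to growth signals, Ccnd1 (NM_007631, chromosome 7, 152115836 to 152125830) was read at 41.2 RPKM in uterus 1 and 35.7 in uterus 2. Ccnd3 was read at 23.4 and 19.0 RPKM. Ccnd2 was read at 18.8 and 18.0 RPKM. Ccnd1 was the highest of the D cyclins in both animals, 1.76-fold and 1.88-fold above Ccnd3, whereas Ccnd3 exceeded Ccnd2 by only 1.24-fold and 1.06-fold. Cdk2, the partner of cyclin E and cyclin A, was read at 13.6 and 14.0 RPKM. The E cyclins, which drive the entry into S phase, were the lowest of the class. Ccne1 was read at 3.73 and 3.003 RPKM, and Ccne2 at 2.92 and 3.36 RPKM, and their ranges overlapped.

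The 5 CDK inhibitors divided into 2 well expressed genes and 3 scarce ones. Cdkn1b (p27Kip1, NM_009875, chromosome 6, 134870419 to 134875543), which binds cyclin E and cyclin A complexes of CDK2, was the highest, at 24.6 RPKM in uterus 1 and 27.4 in uterus 2. Cdkn2c (p18Ink4c), which blocks CDK4 and CDK6, followed at 17.5 and 15.1 RPKM. Cdkn1b lay above the median of the G1 class in both animals, and Cdkn2c lay above it in uterus 1 and below it in uterus 2. Cdkn1a (p21Cip1), a p53 target, was read at 2.83 and 2.20 RPKM on 22 and 19 reads, so Cdkn1b exceeded it 8.69-fold in uterus 1 and 12.4-fold in uterus 2. Cdkn2b (p15Ink4b) was read at 0.936 and 1.18 RPKM on 5 and 7 reads. Cdkn2a (NM_009877, chromosome 4, 88920377 to 88940523), whose locus encodes p16Ink4a and p19Arf from alternative first exons, held 2 and 3 reads, or 0.459 and 0.620 RPKM. These values do not exceed the 0.689 and 0.620 RPKM that 3 reads were worth there, so its presence was not detectable at this depth. For comparison, Cdkn1c (p57Kip2), which is not among the 50 genes, was read at 27.5 and 34.2 RPKM, 1.12-fold and 1.25-fold above Cdkn1b. Cdkn2d, the remaining INK4 gene, held only 2 reads and 1 read.

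The G1, S phase and mitotic classes were then set against the CDK inhibitors by the median level of each class. The median inhibitor, Cdkn1a, lay at 2.52 ± 0.445 RPKM (SD, n = 2). The medians were 16.1 ± 0.178 RPKM for the G1 class, 22.1 ± 1.19 for the S phase class and 10.97 ± 1.12 for the mitotic class. On the scale of log2(RPKM + 0.1), the G1 median exceeded the inhibitor median by 2.46 in uterus 1 and 2.79 in uterus 2, a mean of 2.63 ± 0.24 or 6.17-fold. The S phase median exceeded it by 2.97 and 3.21, a mean of 3.09 ± 0.17 or 8.52-fold. The mitotic median exceeded it by 1.81 and 2.37, a mean of 2.09 ± 0.39 or 4.25-fold. All 3 differences were several times their SD and had 1 sign in both animals. An exact two-sided sign-flip permutation test over 2 animals gave p = 0.5 for each, the smallest p it can give, so this design cannot reach p = 0.05. They also rest on few inhibitors of very unequal level: with Cdkn2a, the only member with a mean under 1 RPKM, left out, the inhibitor median was 9.39 RPKM and the mean differences were 1.30, 1.77 and 0.76. The S phase median also exceeded the mitotic median, by 1.16 and 0.85 (1.00 ± 0.22, 2.01-fold). The class medians can be read against 10.96 RPKM, the median of the 13647 genes whose mean reached 1 RPKM: the mitotic class lay at that level, the G1 and S phase classes above it and the inhibitors below it. The inhibitor median of 2.52 RPKM includes Cdkn2a, which fails that filter. Under the same filter it was 9.39 RPKM, much closer to 10.96. Without a filter, the median of all genes in the table was 3.26 RPKM.

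All 7 members of the RB and E2F families were detected, at a class median of 7.39 ± 0.1004 RPKM. Without Rb1 and Rbl2, the members with exon overlap on the opposite strand, this median was 4.58 RPKM. Of the RB proteins, which repress E2F targets until CDKs phosphorylate them, Rbl2 (p130) was the highest, at 17.4 RPKM in uterus 1 and 21.1 in uterus 2. Rb1 was read at 10.9 and 11.3 RPKM, and Rbl1 (p107) at 7.32 and 7.46 RPKM. Rbl2, the RB protein typical of resting cells, thus lay 1.59-fold and 1.87-fold above Rb1, and Rb1 lay 1.49-fold and 1.51-fold above Rbl1. Exons of Rb1 overlap Lpar6 and Rcbtb2, and those of Rbl2 overlap Aktip, all on the opposite strand. E2f4, a repressor E2F that acts together with Rbl1 and Rbl2, was the highest E2F, at 20.9 RPKM in uterus 1 and 14.0 in uterus 2. The activator E2Fs were lower. E2f3 was read at 4.61 and 3.64 RPKM, and E2f1 at 5.51 and 2.48 RPKM. E2f2 was read at 1.87 and 1.29 RPKM, on 34 and 26 reads. The order E2f4, then E2f1 and E2f3, then E2f2 held in both animals, with E2f1 above E2f3 in uterus 1 and below it in uterus 2.

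The S phase class had the highest median of the 5 classes, with all 13 genes detected and 9 of them at 10 RPKM or more in both uteri. Pcna (NM_011045, chromosome 2, 132075022 to 132078916), the sliding clamp of DNA polymerases, was read at 75.1 RPKM in uterus 1 and 71.6 in uterus 2. The Mcm2 to Mcm7 genes encode the 6 subunits of the replicative helicase. Mcm7 was read at 35.8 and 32.7 RPKM, 2.10-fold and 2.19-fold below Pcna. Mcm6 was read at 27.9 and 24.2 RPKM. Mcm4 was read at 24.8 and 22.6 RPKM, Mcm3 at 24.9 and 19.6, Mcm2 at 20.9 and 22.6, and Mcm5 at 20.1 and 18.2. The 6 subunits of this complex therefore lay within a 1.79-fold range of mean levels, narrower than the 24.4-fold range of the whole class. Mcm7 stood above the other 5 subunits in both animals, and its exons overlap those of Ap4m1 and Cops6 on the opposite strand.

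The class also holds enzymes of nucleotide supply. Rrm1, the large subunit of ribonucleotide reductase, was read at 22.9 RPKM in uterus 1 and 23.2 in uterus 2. Rrm2, the small subunit that is made mainly in S phase, was read at 11.01 and 9.38 RPKM, 2.08-fold and 2.48-fold below Rrm1. Tyms, thymidylate synthase, was read at 23.6 and 21.2 RPKM. The genes that control helicase loading followed. Cdt1, a loading factor, was read at 10.4 and 8.90 RPKM, and Gmnn (geminin), which binds and inhibits it, at 8.54 and 6.49 RPKM. Cdc6, which acts beside Cdt1 at origins, was the lowest S phase gene, at 3.22 and 2.80 RPKM on 58 and 56 reads. Pcna, Tyms and 4 other genes of the 50 (Ccnb1, Ccnb2, Ccnd3 and Trp53) have named pseudogene copies, and reads shared with them cannot be told apart here.

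Promoters of the 3 S phase genes with the highest mean level are shown because replication genes are classical E2F targets. Each run covers 250 bases before to 50 bases from the deposited transcription start, on mouse build NCBIM37 (mm9), 5′ to 3′ along the transcribed strand, which is the minus strand for all 3. Capitals mark matches to 3 motifs searched on both strands: an E2F motif (TTTCCCGC, TTTCGCGC, TTTGCCGC or TTTGGCGC), the cell cycle homology region CHR (TTTGAA), and the NF-Y box CCAAT. Pcna lies at chr2:132078867-132079166, Mcm7 at chr5:138613041-138613340 and Mcm6 at chr1:130256184-130256483.
Pcna: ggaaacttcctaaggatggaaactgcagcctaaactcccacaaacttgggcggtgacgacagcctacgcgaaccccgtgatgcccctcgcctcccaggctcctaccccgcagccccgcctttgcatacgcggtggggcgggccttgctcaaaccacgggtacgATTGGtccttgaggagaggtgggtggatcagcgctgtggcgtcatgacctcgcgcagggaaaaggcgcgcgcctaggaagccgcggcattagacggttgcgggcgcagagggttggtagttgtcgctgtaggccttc
Mcm7: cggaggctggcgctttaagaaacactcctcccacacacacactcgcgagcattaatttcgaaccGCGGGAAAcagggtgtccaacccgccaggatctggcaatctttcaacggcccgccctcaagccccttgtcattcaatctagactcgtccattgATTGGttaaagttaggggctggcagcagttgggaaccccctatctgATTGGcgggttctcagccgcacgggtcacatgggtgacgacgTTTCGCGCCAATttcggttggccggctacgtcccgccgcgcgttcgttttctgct
Mcm6: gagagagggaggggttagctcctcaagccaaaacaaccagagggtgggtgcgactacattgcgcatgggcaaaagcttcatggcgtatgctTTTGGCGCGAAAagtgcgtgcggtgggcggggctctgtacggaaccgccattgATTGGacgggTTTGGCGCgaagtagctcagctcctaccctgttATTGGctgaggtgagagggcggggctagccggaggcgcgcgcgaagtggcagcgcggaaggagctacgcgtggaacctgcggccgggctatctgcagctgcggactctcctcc
The Mcm7 window held 2 E2F matches, from base -186 to -179 and from base -5 to 3 counted from the start site, the latter sharing a base with a CCAAT match. The Mcm6 window held 3 E2F matches, of which 2 overlap on opposite strands between bases -159 and -148. In the Pcna window a single CCAAT match was found.

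Over the whole S phase class, 8 of 13 windows held an E2F match, beside 2.86% of the windows of all 22663 genes that could be read. A CHR match was found in 1 of 13 (15.5% of all genes) and a CCAAT match in 10 of 13 (38.3% of all genes). Among the RB and E2F families the E2F motif was found in 5 of 7 windows, namely those of Rb1, Rbl1, E2f1, E2f2 and E2f3. In the G1 class it was found in 1 of 8 windows (Cdk2), and among the CDK inhibitors in 1 of 5 (Cdkn2a). A match is a description of the letters, not a shown binding site, and binding was not measured.

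All 15 mitotic genes were detected, at a median of 10.2 RPKM in uterus 1 and 11.8 in uterus 2. Top2a (NM_011623, chromosome 11, 98854261 to 98885503), the topoisomerase that untangles replicated chromosomes, was read at 58.0 RPKM in uterus 1 and 63.8 in uterus 2. Mki67, which encodes the proliferation antigen Ki-67 that coats mitotic chromosomes, was read at 29.9 and 29.2 RPKM. Top2a exceeded it 1.94-fold and 2.18-fold. These 2 genes also carried the most reads of all 50, between 1154 and 1417, so their levels have the smallest relative counting error. The spread between the animals is a separate matter: the SD was 6.76% of the mean for Top2a and 1.56% for Mki67, but 0.66% for Ccnb2.

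The cyclins and the kinase of mitotic entry followed. Ccna2, cyclin A, was read at 20.2 RPKM in uterus 1 and 17.9 in uterus 2. The B cyclins were close to each other, with Ccnb1 at 12.6 and 12.3 RPKM and Ccnb2 at 14.0 and 14.2 RPKM. Cdk1, their kinase partner, was read at 11.4 and 12.7 RPKM, 0.837 and 0.903 of the level of Cdk2. All 4 were thus within a narrow band, unlike the G1 class, in which Cdk4 far exceeded its cyclins.

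The remaining genes act in the spindle, its checkpoint and the exit from mitosis. Cdc20, the activator of the anaphase-promoting complex, was read at 11.8 RPKM in uterus 1 and 15.1 in uterus 2. Kif11, the kinesin that separates spindle poles, was read at 10.2 and 10.6 RPKM. Among the mitotic kinases, Aurkb of the chromosomal passenger complex was read at 9.33 and 11.8 RPKM, and Aurka of the spindle poles at 7.53 and 5.06 RPKM. Aurkb lay 1.24-fold above Aurka in uterus 1 and 2.33-fold above it in uterus 2, and the change of this ratio was not tested. Plk1, a kinase of mitotic entry and spindle assembly, was read at 5.68 and 7.15 RPKM, and Birc5 (survivin), a passenger complex subunit, at 6.34 and 5.09 RPKM. The spindle checkpoint genes included the lowest of the class. Bub1b (BubR1) was read at 9.74 and 10.6 RPKM, Bub1 at 4.57 and 4.12 RPKM, and the kinase Ttk (Mps1) at 3.60 and 5.28 RPKM, the last on 43 and 70 reads.

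Promoters of the 3 highest mitotic genes are shown for contrast with the S phase windows, since CHR and CCAAT elements are the usual pair in genes that peak in mitosis. Build, window and capitals are as above, and all 3 lie on the minus strand: Top2a at chr11:98885454-98885753, Mki67 at chr7:142908013-142908312 and Ccna2 at chr3:36470869-36471168.
Top2a: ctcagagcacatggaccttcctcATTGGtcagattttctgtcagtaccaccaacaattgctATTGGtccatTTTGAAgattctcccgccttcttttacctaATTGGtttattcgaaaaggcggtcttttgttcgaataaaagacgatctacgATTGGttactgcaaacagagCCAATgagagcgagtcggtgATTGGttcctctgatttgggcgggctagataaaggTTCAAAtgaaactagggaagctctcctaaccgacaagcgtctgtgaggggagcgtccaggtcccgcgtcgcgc
Mki67: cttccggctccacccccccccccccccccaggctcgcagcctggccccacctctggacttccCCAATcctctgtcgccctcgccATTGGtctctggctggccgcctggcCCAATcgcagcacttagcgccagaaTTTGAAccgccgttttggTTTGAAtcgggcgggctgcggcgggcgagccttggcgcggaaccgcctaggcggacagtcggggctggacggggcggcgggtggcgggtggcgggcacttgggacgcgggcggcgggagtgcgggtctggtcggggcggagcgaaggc
Ccna2: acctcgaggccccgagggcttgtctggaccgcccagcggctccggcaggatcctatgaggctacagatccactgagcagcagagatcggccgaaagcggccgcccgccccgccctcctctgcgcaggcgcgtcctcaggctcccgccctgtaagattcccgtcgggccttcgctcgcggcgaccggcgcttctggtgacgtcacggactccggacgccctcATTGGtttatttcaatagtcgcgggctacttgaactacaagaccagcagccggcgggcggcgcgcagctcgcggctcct
Top2a held 6 CCAAT and 2 CHR matches, one of the latter 23 to 18 bases before the start site. Mki67 held 3 CCAAT and 2 CHR matches. In the Ccna2 window a single CCAAT match was found, 29 to 25 bases before the start.

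Over the mitotic class, 11 of 15 windows held a CHR match and 14 of 15 a CCAAT match, while 1 of 15 (Cdk1) held an E2F match. The S phase and mitotic classes thus differed in the letters of these windows, 8 of 13 against 1 of 15 for the E2F motif and 1 of 13 against 11 of 15 for the CHR motif, although their median levels in the uterus differed only 2.01-fold. The wider lists of other genes had the same direction: E2F matches in 11 of 39 other S phase genes and 5 of 54 other mitotic genes, and CHR matches in 4 of 39 and 36 of 54. Restricted to genes whose mean reached 1 RPKM, the shares were 3.90% for the E2F motif, 11.8% for the CHR motif and 37.4% for CCAAT.

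**Figure D2:**
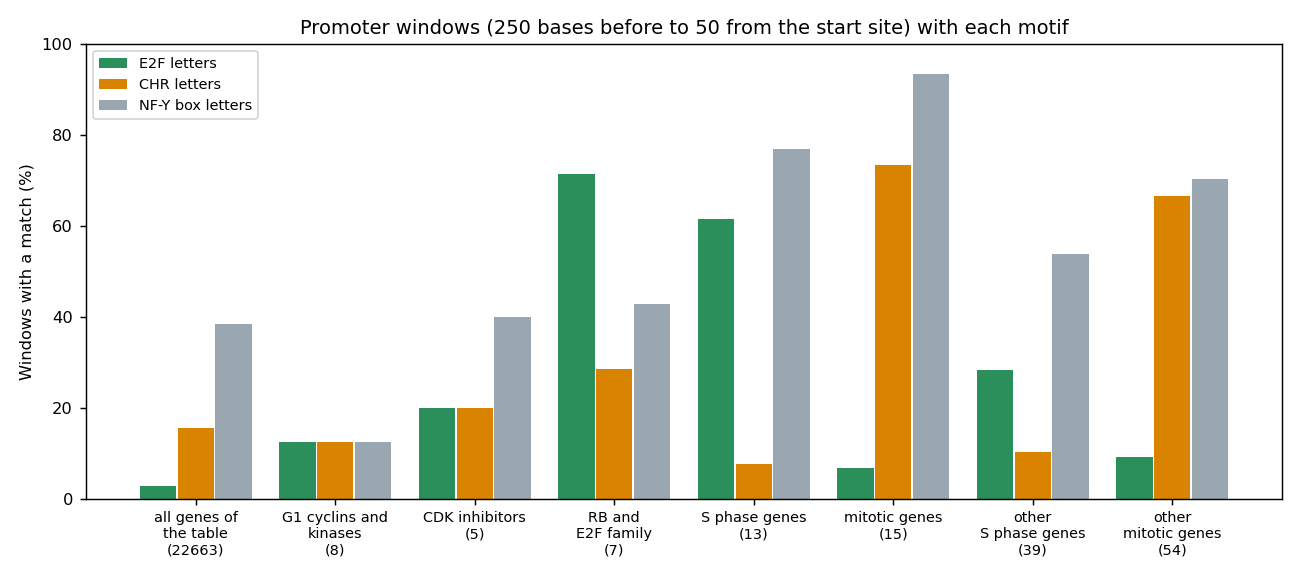
Percent of promoter windows (bars, from 0) with at least 1 match to the E2F (green), CHR (orange) or CCAAT (grey) motif, for all genes of the table, each class and the other S phase and mitotic genes, with the number of windows in parentheses. E2F bars are tall for the S phase class (61.5%) and for the RB and E2F families (71.4%), and CHR bars for the mitotic class (73.3%) and the other mitotic genes (66.7%).

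Of the upstream regulators, Myc, a transcription factor induced by growth signals that raises D cyclin and Cdk4 expression, was read at 39.0 RPKM in uterus 1 and 37.9 in uterus 2. Trp53, the p53 factor that halts the cycle after DNA damage through Cdkn1a, was read at 33.8 and 28.3 RPKM. Trp53 exceeded Cdkn1a 11.9-fold and 12.8-fold. Of a list of 15 other p53 targets, all were detected, at a median of 14.8 ± 0.815 RPKM, so Cdkn1a lay below the level of this list. Its highest member was Ccng1 (cyclin G1), at 49.4 and 67.7 RPKM, and its lowest Pmaip1 (Noxa), at 2.36 and 3.28 RPKM.

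Wider lists of genes with the same roles were read for comparison. All 39 other S phase genes were detected, at a median of 11.3 ± 0.805 RPKM, with the clamp loader subunit Rfc2 the highest at 27.1 RPKM. All 54 other mitotic genes were detected, at a median of 8.32 ± 0.531 RPKM, from the phosphatase Cdc25c (2.29 RPKM) to the condensin subunit Smc4 (31.2 RPKM). All 13 other E2F and DREAM complex genes were detected, at a median of 7.06 ± 1.02 RPKM, from the repressor E2f7 (1.68 RPKM) to the E2F partner Tfdp1 (56.1 RPKM). The order of the medians, S phase over mitotic over E2F family, was that of the 3 classes among the 50 genes.

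**Figure D3:**
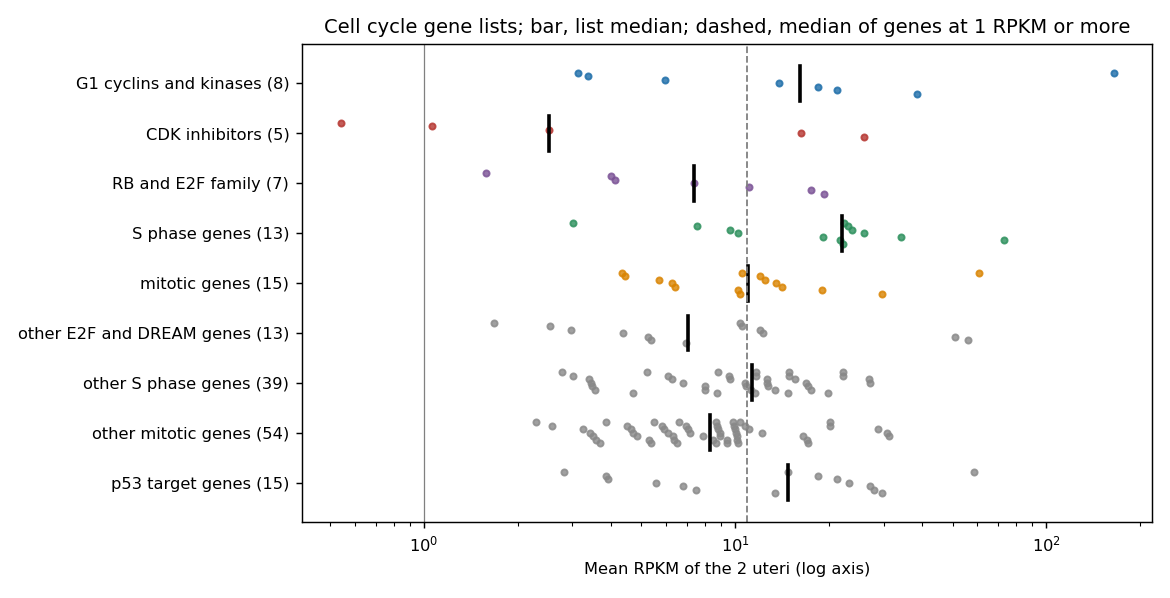
Mean RPKM of the 2 uteri (log axis) for every gene of the 5 main classes (coloured) and of 4 wider lists (grey), with black bars at list medians, a dashed line at the median of genes at 1 RPKM or more (10.96 RPKM) and a grey line at 1 RPKM. The S phase class has the rightmost median at 22.1 RPKM, the CDK inhibitors the leftmost at 2.52 RPKM, and no gene of the 4 wider lists lies left of 1 RPKM.

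The 2 uteri were last compared gene by gene. Ratios are uterus 2 over uterus 1, and log2 ratios were taken after adding 0.1 RPKM, for genes whose mean reached 1 RPKM, which holds for 49 of the 50 genes (all but Cdkn2a). Of these 49, 1 gene was at least 2-fold apart, beside 2.6% of the 13647 genes of the table that pass the same filter. Lower in uterus 2 were 31 of 49, beside 49.9% of all genes. By class, 11 of 13 S phase genes, 6 of 8 G1 genes, 4 of 7 RB and E2F genes, 2 of 4 inhibitors and 6 of 15 mitotic genes were lower. Median log2 ratios were -0.15 for the S phase class, -0.14 for the G1 class, -0.33 for the RB and E2F families, -0.03 for the inhibitors and 0.06 for the mitotic class. These shifts are small, and the sign of the median for the inhibitors and for the RB and E2F families changed with the filter on low values.

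A two-sided exact binomial test of the recovered reads, with Benjamini-Hochberg adjustment over the 15145 genes with at least 6 reads, compares these 2 libraries and not conditions. It called 2 of the 49 genes tested, beside 4.89% of all genes tested, and 8 of 49 had an unadjusted p below 0.05, beside 15.8%. Both counts are near the shares of all genes. E2f1 (NM_007891, chromosome 2, 154385375 to 154395588), an activator of S phase genes, held 52 reads in uterus 1 and 26 in uterus 2, a ratio of 0.45 with a 95% counting interval of 0.27 to 0.735 and an adjusted p of 0.0234 in the exact binomial test. It was also the gene at least 2-fold apart, with a log2 ratio of -1.12. E2f4 (NM_148952, chromosome 8, 107821563 to 107829270) held 160 and 119 reads, a ratio of 0.67 with an interval of 0.524 to 0.855 and an adjusted p of 0.0245 in the same exact test. Both were lower in uterus 2, and the intervals cover counting error only, since copies made by PCR are not independent molecules. The reads of E2f1 depend on the transcript length assumed, which is 2460 bases for the reads used. Its RPKM values also allow 26 and 13 reads, for which the exact binomial test gave an unadjusted p of 0.0235 in place of 0.000886. These imply 1230 bases, less than the longest annotated coding length of 1293. In the other direction, 78 and 39 reads (3690 bases) gave an unadjusted p of 3.8e-05 in the exact binomial test.

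GC content moved with the ratio over all genes: among 10 bins of equal gene number, the median log2 ratio was 0.06 in the bin of lowest GC and -0.07 in the bin of highest GC. E2f1 (58.3% GC) lies in the highest bin and E2f4 (56.1%) in the next. After subtracting the median of genes of like GC, an alternative chosen after the data were seen, their log2 ratios were -1.05 and -0.53, and the median of the mitotic class was 0.0118. Next to these genes, Rbl2 was higher in uterus 2 (327 and 438 reads, ratio 1.21, interval 1.04 to 1.40) with an adjusted p of 0.128 in the exact binomial test. Mcm3 was lower (276 and 241 reads, ratio 0.787, interval 0.659 to 0.938) with an adjusted p of 0.105 in that exact test. The best counted genes, Top2a and Mki67, had ratios of 1.10 (interval 1.02 to 1.19) and 0.978 (interval 0.902 to 1.06).

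**Figure D4:**
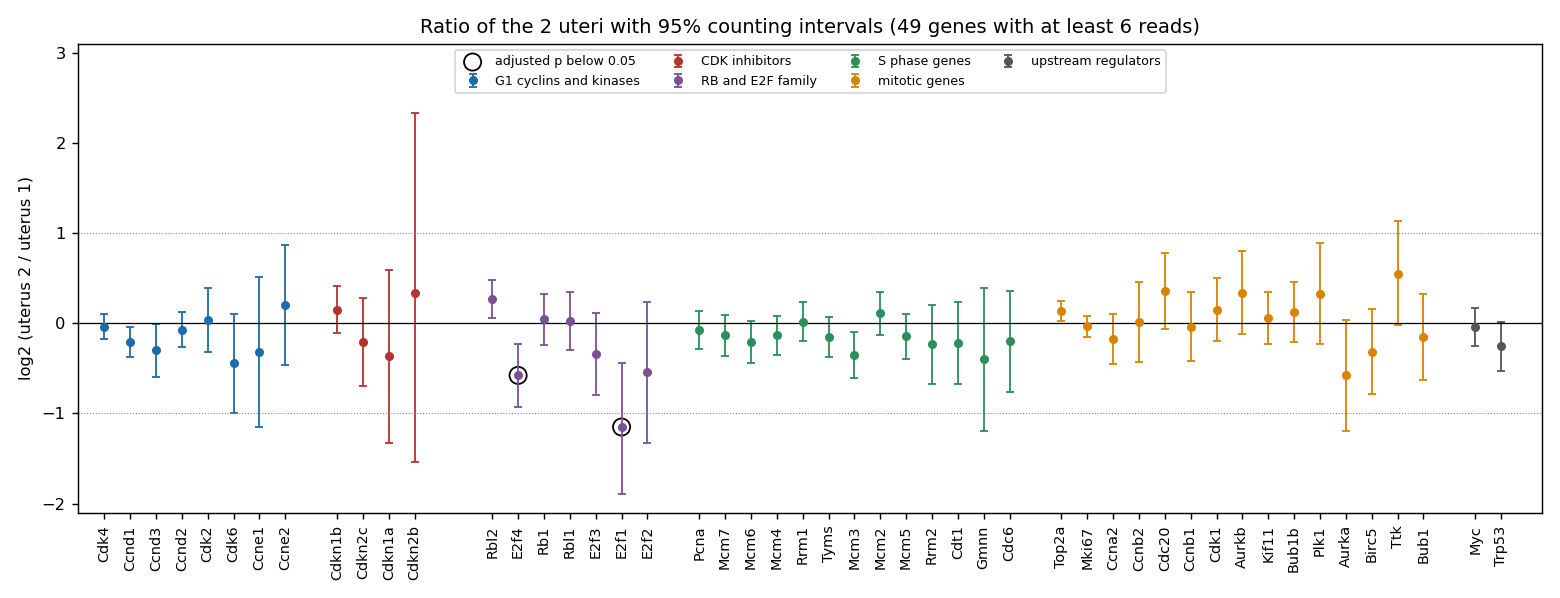
Log2 of the ratio of uterus 2 to uterus 1 from recovered reads, with no added constant, for the 49 genes with at least 6 reads, coloured by class. Bars are 95% counting intervals, dotted lines mark 2-fold, and black rings mark the 2 genes called by the exact binomial test (E2f1 and E2f4). Of the 49 intervals, 42 include 0, and that of Cdkn2b, on 5 and 7 reads, is the longest.

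Among the genes of the wider lists, Kifc1 and Bbc3 were at least 2-fold apart and lower in uterus 2. Kifc1, a spindle kinesin, was read at 4.83 and 2.33 RPKM (43 and 23 reads), with an adjusted p of 0.0749 in the exact binomial test. Bbc3 (Puma), a p53 target in cell death, was read at 5.41 and 2.26 RPKM (41 and 19 reads), with an adjusted p of 0.0376 in that exact test. In all, the exact binomial test called 5 of the 122 wider genes tested, beside 4.89% of all genes tested: Gins2, Espl1, Bbc3 and Zmat3 were lower in uterus 2 and Ccng1 was higher. All 5 lost their calls when the smallest reads that give each ratio were used, with adjusted p from 0.054 (Bbc3) to 0.995 (Espl1) in that exact test. That setting ignores transcript length and can only keep or lower the reads. A call lost there therefore cannot decide whether the call holds. The 41 and 19 reads of Bbc3 have no common factor and stay the same, so its call changed only through the adjustment over all genes. Lower in uterus 2, called or not, were 24 of 39 other S phase genes and 38 of 54 other mitotic genes, beside 6 of 15 in the mitotic class itself.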

How the data were processed

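Whole uterus of 2 mice (pregnancy day 4) was sequenced by the authors after poly-A selection, per the labels, with 1 library per animal. The deposited unit is RPKM per gene, per the labels. TopHat, edgeR and the mm9 build are named per the submitters' processing notes. The counting program, its use of strand and the annotation release are not given in the sources used here. Every value column belongs to a library. The 50 genes and all lists were chosen with earlier results of these data known.

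RPKM values were turned back into reads. The ratio of the 2 values gave whole numbers for all 17426 genes above 0 (relative tolerance 1e-12), with scaling totals of 3834174 and 4256101 found from short genes. The factor common to both reads was chosen by closeness to GENCODE M1 transcript lengths. For 36 of the 50 genes the implied length was within 1% of an annotated one, for 13 it was over 5% away, and for 1205 genes of the table without an annotated length the smallest reads were used. Reads were compared by an exact binomial test against the share of the scaling totals. The test was tested on simulated data. Intervals are exact binomial at 95%. No SD uses more than 2 animals, which the design text calls independent. Ratios use a pseudocount of 0.1 RPKM, which understates changes of low genes, and a mean of at least 1 RPKM.

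All 50 genes are named. Of wider lists the highest and lowest with a mean of at least 1 RPKM, genes 2-fold apart and both further CDK inhibitors are named, and of marker lists the highest. Of the genes this rule names, 2 are not reported here. Genes named by the exact test and overlapping neighbours were chosen after their values were seen. Promoter windows come from NCBIM37, with deposited starts. Protein sequences were planned and are not used here. Alternatives changed thresholds, unit, pseudocount, filter, centring, summary and reads. Python 3.11.15, numpy 2.4.6, pandas 2.3.3, scipy 1.17.1 and matplotlib 3.10.9 were used.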

Additional observations from a re-analysis of the deposited data

How the results depend on the processing

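With 2 libraries in 1 group, precision is limited by animal number, and low genes by depth: Cdkn2a and Cdkn2b held at most 7 reads a library. No paired analysis was possible because both libraries belong to the same group. Leaving out 1 library could not be run for ratios between the uteri. Of 102 alternatives, 74 kept their value or call. Differences of G1, S phase and mitotic medians from the inhibitors kept their direction throughout.

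Rescaling to TPM multiplied the medians by construction, to 38.1 (G1), 5.96 (inhibitors), 17.5 (RB and E2F), 52.2 (S phase) and 25.9 (mitotic). A filter at a mean of 1 RPKM, which removes Cdkn2a, moved the inhibitor median to 9.39 RPKM and the log2 differences from the inhibitors to 1.30 (G1), 1.77 (S phase) and 0.76 (mitotic). Means of log2 values in place of medians gave 1.96, 2.22 and 1.55, and the cause was not tested. A pseudocount of 1 RPKM gave 2.27 (G1) and 2.72 (S phase), since a larger added constant lowers such differences by arithmetic. The count of genes at least 2-fold apart was 0 with a pseudocount of 1 RPKM and 0 at a mean of at least 10 RPKM, where E2f1 is not tested. The median log2 ratio was 0.15 for the inhibitors without a filter and 0.0435 for the RB and E2F families at a mean of at least 10 RPKM. With the smallest reads that give each ratio the exact binomial test called 1 of the 50 genes (E2f4, adjusted p 0.0346), E2f1 having too few reads for a test, and 429 genes of the table in place of 740. Of the wider genes, Gins2, Espl1, Ccng1, Bbc3 and Zmat3 lost their calls there. Because this setting ignores transcript length and can only keep or lower reads, these losses cannot decide whether the calls hold.

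In alternatives chosen after seeing the data, centring on genes of like GC moved the mitotic median log2 ratio to 0.0118, and leaving out genes with exon overlap on the opposite strand moved the medians to 13.8 (G1), 4.58 (RB and E2F) and 20.3 RPKM (S phase).

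Leaving out each library in turn, detected genes ranged from 48 to 49. Medians ranged from 16.0 to 16.2 (G1), 2.20 to 2.83 (inhibitors), 7.32 to 7.46 (RB and E2F), 21.2 to 22.9 (S phase) and 10.2 to 11.8 RPKM (mitotic). Log2 differences ranged from 2.46 to 2.79 (G1), 2.97 to 3.21 (S phase) and 1.81 to 2.37 (mitotic).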

Other observations

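Rows for miRNA hairpins, which the deposited annotated table lists beyond the genes used above, include 3 within the Mcm7 transcript. Mir25 held 8 reads in uterus 1 and 3 in uterus 2, Mir93 held 2 and 2, and Mir106b held 0 and 2. Mir687, within Rb1, held 1 read in each. Libraries of poly-A RNA record precursor or host transcripts, and none of these hairpins exceeded 3 reads in both uteri, so no level is given for them.

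Median GC content of the longest coding transcripts was 55.8% for the CDK inhibitors, 50.3% for the G1 class, 49.2% for the S phase class, 48.9% for the RB and E2F families and 47.2% for the mitotic class, beside 50.3% over genes whose mean reached 1 RPKM. The mitotic class, lowest in GC, was the 1 class whose median log2 ratio of uterus 2 over uterus 1 was positive at a mean of 1 RPKM or more. Among the other classes, the RB and E2F families (48.9% GC) had the lowest median ratio, -0.33, and the inhibitors (55.8% GC) the highest, -0.03. For the wider list of other mitotic genes the median was -0.13. A link between the GC content of a class and its ratio was not tested.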
